A study of Danio rerio with 6 samples.

Results

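The smooth muscle contractile genes described here are the gene IDs that carry the zebrafish names tagln, acta2, myh11a, cald1b, cnn1b, smtnb, mylka, lmod1b, elna and elnb, taken with or without the paralog letter. There were 8 such IDs among 14211. TAGLN and MYH11 stand for tagln and myh11a, and MYLK stands for mylka, in the form of the human symbol. TAGLN labelled 2 IDs, and which zebrafish paralog each of these 2 is, or the MYH11 and MYLK IDs are, was not given in the sources used here. The names cnn1b (calponin), lmod1b (leiomodin) and elna (elastin a) are not analysed here.

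All 6 libraries came from the apical ventricle of adult AB zebrafish whose hearts had been injured by local freezing. The 3 RO libraries, numbered 2, 3 and 4, are from fish injected into the peritoneum with RO, a gamma secretase inhibitor, at 24 h and 48 h after injury. The 3 DMSO libraries, numbered 1, 2 and 3, are from fish given the carrier at the same times. Hearts were collected at 72 h and each library pools 3 of them, so differences between single fish cannot be seen. No uninjured or uninjected heart is among these groups.

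Smooth muscle cells contract when myosin light chain kinase phosphorylates the regulatory light chain of smooth muscle myosin, which then pulls on filaments of smooth muscle actin. Calponin, caldesmon, transgelin and smoothelin bind these filaments, and serum response factor with its myocardin-family partners switches many of the genes on. In the zebrafish heart, smooth muscle surrounds the outflow tract and coronary vessels, while activated fibroblasts, epicardial cells and immature cardiomyocytes can express part of the same set. Gamma secretase cleaves Notch receptors, and Notch signalling is known to promote smooth muscle differentiation in mammals.

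Of 2 IDs named TAGLN, for transgelin, 1 passed the test, 1.46-fold higher in RO (ENSDARG00000033466), and no other gene of the contractile set passed. That call was near the threshold (adjusted p = 0.0491) and ended with any single library left out and in edgeR. The other TAGLN ID had a lower mean in RO and did not pass, and which of the 2 IDs is zebrafish tagln is not settled here. Of the 7 IDs that did not pass, 4 had fold changes below 1, namely smooth muscle actin, smoothelin, myosin light chain kinase and the second TAGLN gene. Over all genes, 1.03% passed (0.647% higher and 0.387% lower), and 18.7% had RO and DMSO values that did not overlap (9.32% higher and 9.35% lower). Among the 8 IDs, 1 passed and the same 1 had groups that did not overlap. Their median log2 fold change was -0.035, against -0.010 over all genes. Values are the deposited normalized counts, which are scaled by 1 factor per library and are not divided by gene length, so levels are compared between libraries and not between genes. A gene passed at an adjusted p below 0.05 over all genes.

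**Figure D1:**
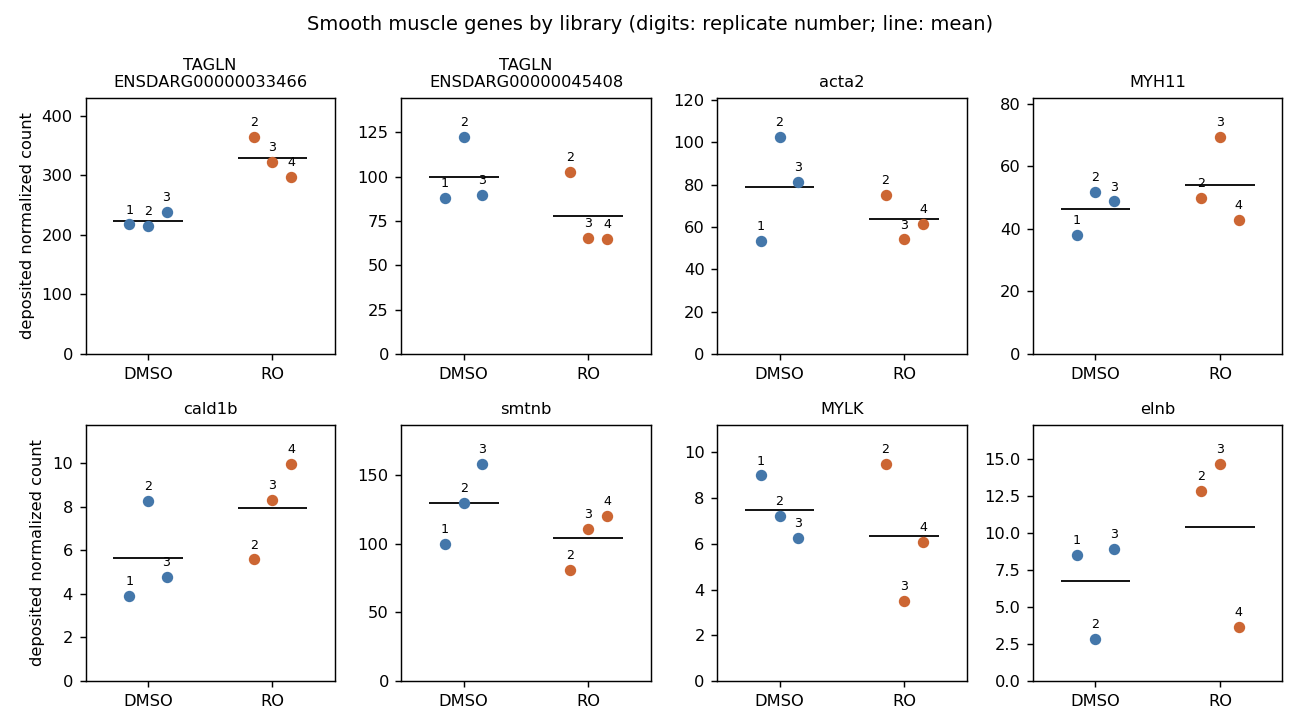
Deposited normalized counts of the 8 gene IDs in each library, one panel per ID, with a line at the mean of each group of 3 and the replicate number above each point. The RO points lie above all DMSO points for TAGLN (ENSDARG00000033466), and the groups overlap in the other 7 panels.

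TAGLN is the symbol of transgelin, or SM22 alpha, a calponin-family protein that binds actin filaments. Which of the 2 IDs with this symbol encodes it is not settled here. The ID that passed (ENSDARG00000033466) had a normalized count of 217.6, 215.2 and 238.2 in DMSO replicates 1, 2 and 3. It stood at 364.5, 323.2 and 298.1 in RO replicates 2, 3 and 4. Every RO library lay above every DMSO library, and the DMSO libraries lay close together. The mean was 224 ± 12.6 in DMSO and 329 ± 33.5 in RO (SD, n = 3 per group here and below). The log2 fold change was 0.55 with a 95% interval of 0.30 to 0.80 (SE 0.113, adjusted p = 0.0491). By its p-value TAGLN stood in place 145 of the 147 genes that passed, and the call ended whichever single library was left out, with adjusted p from 0.0532 without RO replicate 4 to 0.160 without RO replicate 3. It also ended in edgeR on the recovered reads (adjusted p = 0.0524) and was kept in DESeq2 (adjusted p = 0.00441). In bulk tissue, a change in the number of cells that express the gene and a change in the RNA per cell cannot be told apart.

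For the second TAGLN gene (ENSDARG00000045408) the normalized count was 88.0, 122.3 and 89.6 in DMSO and 102.8, 65.5 and 65.0 in RO. RO replicates 3 and 4 lay below all DMSO libraries, and RO replicate 2 lay among them. With a log2 fold change of -0.38 and an interval of -0.80 to 0.042, it did not pass (adjusted p = 0.438). The sequences of the 2 IDs were not compared, and whether counting divided reads between them was not tested. The sum of both TAGLN IDs was 305.6, 337.6 and 327.8 in DMSO and 467.3, 388.7 and 363.1 in RO, so that the groups of the sum did not overlap. The mean log2 of the sum differed by 0.32 (exact permutation test, two-sided, p = 0.1, the smallest that 3 against 3 libraries can give). The ID that passed (ENSDARG00000033466) was the larger part of the sum in every library. The sum therefore largely repeats its result, and the p-value of the sum is no separate evidence.

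The gene acta2 (ENSDARG00000045180) encodes smooth muscle alpha actin, the thin filament of the contractile apparatus and a marker of myofibroblasts. It stood at 53.5, 102.5 and 81.3 in DMSO and 75.1, 54.1 and 61.6 in RO. DMSO replicate 1 was the lowest library of all and DMSO replicate 2 the highest. The means were 79.1 ± 24.6 and 63.6 ± 10.7, with a log2 fold change of -0.28 and an interval of -0.74 to 0.19 (adjusted p = 0.642). The spread among DMSO libraries was 31.1% of their mean, while counting error alone would give 5.81%. Actin genes are close in sequence, and the cardiac actin gene actc1a, at 10312, 14082 and 12578 in DMSO and 9659, 10910 and 11439 in RO, is abundant in these libraries. The value of acta2 was 0.519%, 0.728% and 0.646% of that of actc1a in DMSO and 0.778%, 0.496% and 0.538% in RO. Both genes had the same order among the DMSO libraries, and RO replicate 2 was the highest RO library for acta2 and the lowest for actc1a. Whether reads of actc1a were assigned to acta2 was not tested.

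MYH11 (ENSDARG00000009782) is named for the smooth muscle myosin heavy chain, the motor of these cells. It stood at 38.2, 51.9 and 48.8 in DMSO and 49.99, 69.4 and 42.8 in RO. RO replicate 3 was above all other libraries and the remaining RO libraries lay within the DMSO range. Its log2 fold change was 0.20, with an interval of -0.20 to 0.61 (adjusted p = 0.698), and it was 0.012 without RO replicate 3.

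Myosin light chain kinase, named by MYLK (ENSDARG00000034801), is the enzyme that starts contraction. Its values were 8.99, 7.23 and 6.25 in DMSO and 9.50, 3.50 and 6.08 in RO, from 16 to 37 reads per library. RO replicate 2 was the highest library and RO replicate 3 the lowest. Its fold change of -0.30 on the log2 scale had an interval of -1.01 to 0.40 (adjusted p = 0.748), and without RO replicate 3 it was 0.036.

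Smoothelin, encoded by smtnb (ENSDARG00000059442), binds actin in contractile smooth muscle. Its values were 100.2, 130.1 and 158.4 in DMSO and 81.3, 111.3 and 120.2 in RO. RO replicate 2 was below all DMSO libraries, while RO replicates 3 and 4 lay inside the DMSO range. The log2 fold change was -0.31, with an interval of -0.71 to 0.099 (adjusted p = 0.528).

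Caldesmon, encoded by cald1b (ENSDARG00000086391), binds actin and tropomyosin and restrains the myosin motor. It had 16 to 41 reads per library and values of 3.89, 8.26 and 4.76 in DMSO and 5.59, 8.32 and 9.98 in RO. DMSO replicate 2 lay within the RO range, so the groups overlapped. For cald1b the log2 fold change was 0.49, with an interval of -0.19 to 1.17 (adjusted p = 0.553). The more deeply counted paralog cald1a (ENSDARG00000070314), named after its values were seen, had a log2 fold change of -0.065 (adjusted p = 0.910). It stood at 54.9, 45.2 and 61.9 in DMSO and 44.7, 63.5 and 47.2 in RO. The groups of cald1a overlapped throughout their range.

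Elastin b, encoded by elnb (ENSDARG00000069017), is a matrix protein of the elastic wall of the outflow tract in teleost fish. Its values were 8.51, 2.84 and 8.93 in DMSO and 12.8, 14.7 and 3.65 in RO, from 11 to 67 reads. RO replicate 4 and DMSO replicate 2 were low, and RO replicates 2 and 3 were above all DMSO libraries. The log2 fold change was 0.52, with an interval of -0.59 to 1.63 (adjusted p = 0.718). It was 1.11 without RO replicate 4 and 0.034 at the lowest when another library was left out. The spread within groups, 50.3% of the mean in DMSO and 56.9% in RO, was larger than the 19.9% and 15.3% that counting error gives.

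**Figure D2:**
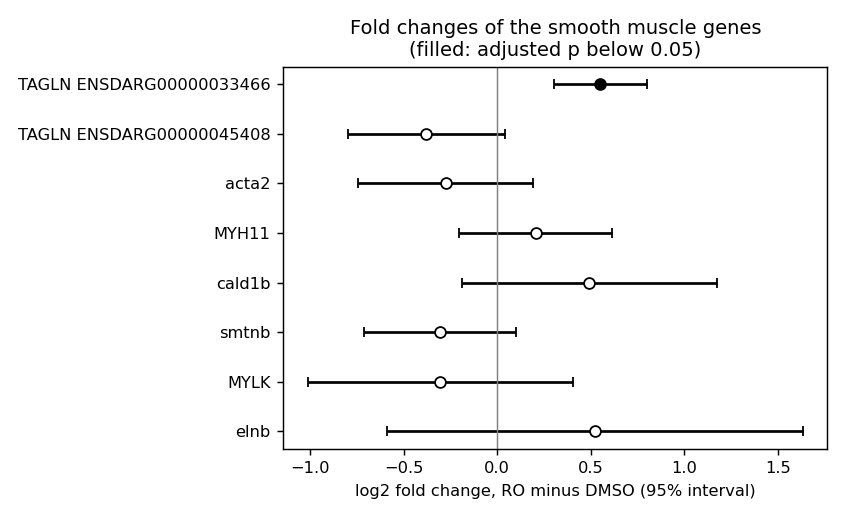
Log2 fold changes of the 8 gene IDs, RO minus DMSO, with 95% intervals from limma. The interval of TAGLN (ENSDARG00000033466), 0.30 to 0.80, lies above 0, and the other 7 intervals include 0.

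Because each library gives every gene, the members can also be set against TAGLN (ENSDARG00000033466) within the same library. TAGLN was taken as the denominator as the member that passed, so each ratio carries its log2 difference of 0.55 with the sign turned, and the ratios restate the fold changes above as a description. The log2 ratio of acta2 to TAGLN was -2.01, -1.07 and -1.54 in DMSO and -2.27, -2.57 and -2.27 in RO. For smtnb the ratio was -1.11, -0.72 and -0.59 in DMSO and -2.16, -1.53 and -1.31 in RO. The means of these ratios differed by -0.83 and -0.86, those of the second TAGLN gene by -0.93 and those of MYLK by -0.85. The groups did not overlap in any of the 4. Without the division, the groups of each of these 4 IDs overlapped, while those of TAGLN did not. The share of all genes whose ratio to TAGLN does not overlap was not counted. The 4 are therefore not read as a result about these genes. TAGLN was chosen for its difference between the groups. A test of these ratios therefore cannot decide whether the members moved apart from it, and none is given. MYH11 to TAGLN differed by -0.35, with overlapping groups. The ratios of cald1b and elnb differed by -0.059 and -0.028, with overlapping groups, and the direction of both turned with single libraries left out.

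**Figure D3:**
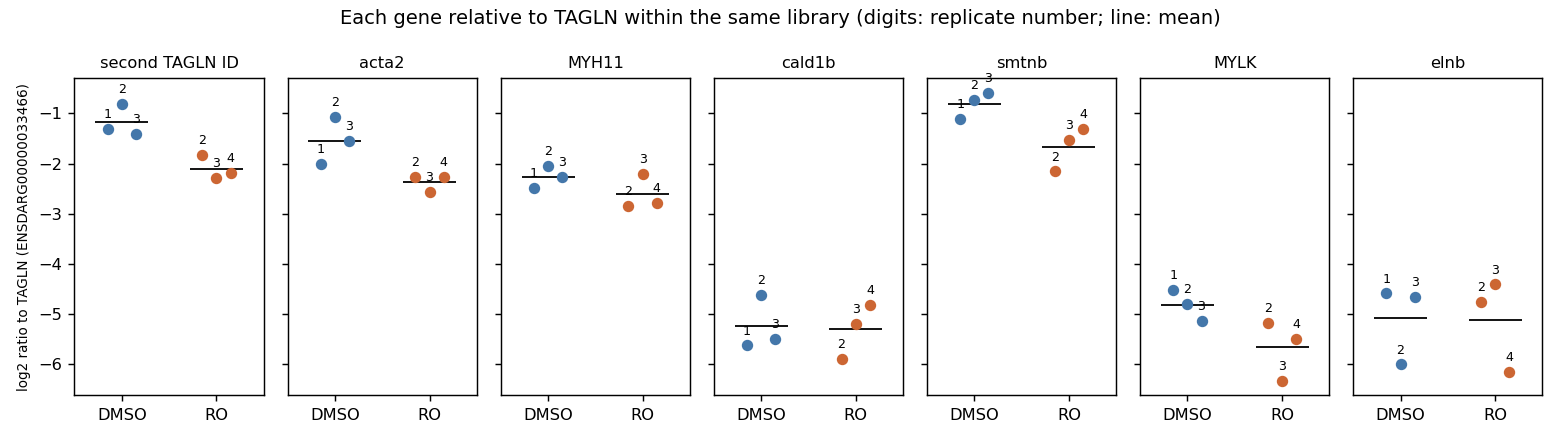
Log2 ratio of each of the other 7 gene IDs to TAGLN (ENSDARG00000033466) in each library, with a line at each group mean and the replicate number above each point. The RO ratios lie below all DMSO ratios for the second TAGLN gene, acta2, smtnb and MYLK, and overlap for MYH11, cald1b and elnb. Each ratio carries the difference of TAGLN itself, and the share of all genes so placed was not counted.

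The members varied among libraries in different ways. After group means were removed, log2 values of acta2 and the second TAGLN gene had a Pearson correlation of 0.75 over the 6 libraries, with DMSO replicate 2 and RO replicate 2 the highest of their group in both. For smtnb and MYLK the same measure was -0.71, for MYH11 and MYLK -0.71, and for cald1b and elnb -0.80. It was 0.60 for the second TAGLN gene and MYLK, and 0.60 for cald1b and smtnb. These pairs were picked as strong ones of either sign, and MYLK, cald1b and elnb rest on few reads. Removing the group means also leaves fewer independent values than libraries. TAGLN (ENSDARG00000033466) had 0.69 with elnb, -0.67 with cald1b, 0.51 with the second TAGLN gene, 0.33 with MYLK, 0.30 with acta2, -0.30 with smtnb and 0.21 with MYH11. All pairs come from the same 6 libraries, which share their depth and makeup, and the values are given as a description.

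Out of 5193 genes with a symbol and a mean normalized count of at least 20, the 5 with the highest Pearson correlation with TAGLN (ENSDARG00000033466) over the 6 libraries were CNIH1 (0.995), eif4a1a (0.992), ACSBG2 (0.987), ABCB10 (0.985) and cirbpb (0.985). The correlation includes the difference between RO and DMSO, so genes chosen by it tend to differ between the groups as TAGLN does, and no test of them is given. CNIH1 is a cargo receptor of the early secretory pathway, and eif4a1a encodes a helicase of translation initiation. ACSBG2 encodes an acyl-CoA synthetase, ABCB10 a mitochondrial transporter and cirbpb a cold-inducible RNA-binding protein. As an example, eif4a1a stood at 272.8, 286.0 and 317.1 in DMSO and 485.4, 451.6 and 414.7 in RO.

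Beyond the members, genes of the actin and myosin cytoskeleton were also divided in direction. Of 24 measured IDs in a list of smooth muscle cytoskeletal genes, 2 rose and none fell, 11 had log2 fold changes above 0 and 13 below, and the median was -0.020. The actin crosslinker filamin A, encoded by flna (ENSDARG00000074201), rose 1.59-fold. It stood at 547.5, 529.3 and 542.1 in DMSO and 902.4, 968.4 and 722.5 in RO (adjusted p = 0.0363). CSRP1 (ENSDARG00000006603), a LIM-domain protein of actin filaments found in smooth muscle, rose 1.45-fold, from 75.2 ± 1.75 to 110 ± 7.85 (adjusted p = 0.0468). Both had DMSO values within a narrow range and RO values all above it. The call of CSRP1 ended without any single library and that of flna without each library but RO replicate 4 (adjusted p up to 0.160). CNN2 (ENSDARG00000035858), a calponin of non-muscle cells named after its values were seen, stood at 232 ± 21.3 and 304 ± 30.7 and did not pass (adjusted p = 0.172). In this list 6 IDs were higher in every RO library than in any DMSO library and 2 were lower, where 9.32% and 9.35% of all genes were so placed. Both lower IDs, tropomyosin genes that were named once their values were known, did not pass. They were tpm1 (ENSDARG00000087402), at 30.0 ± 2.68 and 22.4 ± 3.66, and TPM4 (ENSDARG00000019128), at 13.7 ± 0.770 and 8.23 ± 3.08 (adjusted p = 0.273 and 0.190).

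Among 15 IDs of serum response factor, its partners and other transcriptional regulators of muscle, 1 rose, none fell, 10 lay above 0 and the median was 0.22. The gene that rose was KLF4 (ENSDARG00000079922), which in mouse represses contractile genes of smooth muscle. It stood at 2.19, 2.32 and 6.25 in DMSO and 11.7, 13.6 and 16.8 in RO (3.87-fold, adjusted p = 0.0302), so every RO library was above every DMSO library. Serum response factor, SRF (ENSDARG00000053918), was at 4.62, 3.36 and 4.17 in DMSO and 5.59, 9.64 and 9.25 in RO and did not pass (log2 fold change 0.90, adjusted p = 0.168). Its coactivator MRTFA (ENSDARG00000075867) was at 2.68 ± 1.19 and 4.88 ± 0.846 (adjusted p = 0.332). SRF and MRTFA were named after their values were seen, and KLF4, SRF and MRTFA all rest on few reads (9, 9 and 21 reads for KLF4 in DMSO). Of the 15 IDs, 5 were higher in every RO library than in any DMSO library and 3 were lower, against 9.32% and 9.35% of all genes. Named after their values were seen, 2 of the lower ones were TBX20 (ENSDARG00000005150), a cardiac transcription factor, at 125 ± 16.8 and 93.6 ± 10.4, and HEY2 (ENSDARG00000013441), a repressor induced by Notch, at 10.9, 11.6 and 10.4 in DMSO and 7.54, 6.57 and 7.79 in RO, and neither passed (adjusted p = 0.198 and 0.221). KLF4 kept its call only when DMSO replicate 3 or RO replicate 2 was left out (adjusted p of the others up to 0.106).

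Among 20 IDs of elastic fibre assembly none rose or fell at the threshold, with 9 above 0 and a median of -0.061. The most abundant were EFEMP2 (ENSDARG00000094324), a fibulin needed for elastic fibres, at 163 ± 9.94 and 134 ± 11.6 (adjusted p = 0.299), and MFAP4 (ENSDARG00000090783), at 99.9 ± 30.7 and 112 ± 37.5 (adjusted p = 0.854). In zebrafish mfap4 is also a macrophage marker, and 4 MFAP4 IDs stand in both the elastic fibre and the macrophage lists.

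**Figure D4:**
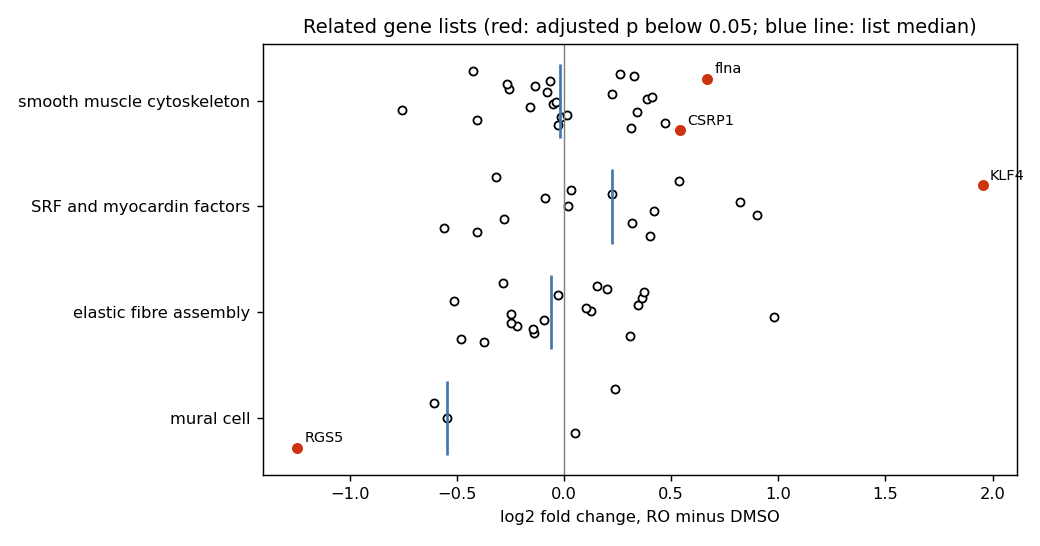
Log2 fold changes, RO minus DMSO, of the measured genes in 4 related lists, with the median of each list as a line and genes that passed in red. KLF4, flna and CSRP1 lie above 0 and RGS5 below, while the medians lie between -0.54 and 0.22.

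Of 5 measured marker IDs of mural cells, the pericytes and smooth muscle around vessels, 1 fell, where 0.387% of all genes fell. RGS5 (ENSDARG00000002644), a regulator of G-protein signalling enriched in pericytes, stood at 12.6, 15.7 and 15.2 in DMSO and 4.75, 7.66 and 5.35 in RO. Every RO library was below every DMSO library, and the gene was 2.37-fold lower (adjusted p = 0.0323). The call ended without any single library but RO replicate 3 (adjusted p up to 0.120). At these values RGS5 rests on few reads. NOTCH3 (ENSDARG00000052139), the Notch receptor of mural cells, named after its values were seen, stood at 23.3, 18.3 and 19.4 in DMSO and 11.5, 18.0 and 10.95 in RO and did not pass (adjusted p = 0.229). ABCC9 had a log2 fold change of -0.54, while CSPG4 and MCAM had 0.24 and 0.049, and none of these 3 passed. Of the 5 measured mural markers 3 lay below 0, with a median of -0.54. Of the same 5, 2 were lower in every RO library than in any DMSO library, where 9.35% of all genes were so placed. The sum and the mean of the 5 markers were also read. Their summed level, of which MCAM made up 63.9% to 81.4%, overlapped, from 463 to 511 in DMSO and from 405 to 500 in RO. Their mean log2(normalized count + 0.5) was lower in every RO library, from 5.33 to 5.44 in DMSO and from 4.76 to 5.12 in RO. The mural markers pdgfrb and kcnj8 are not analysed here.

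Markers of other cells of the apex were read beside TAGLN, as the sum of their normalized counts, which the most abundant marker can set, and as their mean log2(normalized count + 0.5), which weighs each marker alike. Where 48.4% of all genes lay above 0, all 5 measured thrombocyte marker IDs did. Their sum was 67.3 to 84.7 in DMSO and 116 to 180 in RO, and their mean log2 was 3.32 to 3.72 and 4.05 to 4.58. The integrin activator gene FERMT3 (ENSDARG00000030938) was the 1 of them that passed (1.96-fold, adjusted p = 0.0468), a call kept only without RO replicate 4. A second FERMT3 ID (ENSDARG00000079267) had overlapping groups and did not pass (log2 fold change 0.36, adjusted p = 0.532). Of 6 fibroblast markers 4 lay below 0 and none passed. Their sum was 3626 to 4249 in DMSO and 2204 to 3357 in RO, of which the collagen genes col1a1a and COL1A2 made up 87.3% to 93.0%, and these had log2 fold changes of -0.57 and -0.58 (adjusted p = 0.164 and 0.108). Without both collagen genes the sum of the other 4 overlapped, at 265, 270 and 324 in DMSO and 353, 282 and 279 in RO. Most of that sum was DCN, at 204, 204 and 265 in DMSO and 270, 187 and 236 in RO. The other 4 were themselves divided, with log2 fold changes of -0.59 for PDGFRA, -0.60 for LUM, 0.035 for DCN and 0.54 for POSTN. Of 4 measured endothelial marker IDs 2 lay above 0 and 2 below. Their sums were 378 to 412 in DMSO and 377 to 462 in RO and overlapped, as did their mean log2 values. Among them flt1 rose (1.75-fold, adjusted p = 0.0356) and FLI1 had a log2 fold change of 0.042. In contrast, TIE1 was lower in every RO library (log2 fold change -0.28, adjusted p = 0.331), and cdh5 had -0.13. The call of flt1 was kept only without DMSO replicate 1. The part of these cells in the TAGLN result was not tested.

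Epicardial markers had 3 of 4 members below 0 and a median of -0.29. Their sum, which ALDH1A2 leads, was 451 to 524 in DMSO and 521 to 604 in RO and overlapped. ALDH1A2 alone was higher in every RO library, at 467, 403 and 474 in DMSO and 563, 494 and 493 in RO. The mean log2 of the 4 was lower in every RO library, at 5.42, 5.20 and 5.23 in DMSO and 5.13, 4.64 and 5.17 in RO. Among them wt1b had the lowest log2 fold change, and the mean without it was not computed. The gene wt1b (ENSDARG00000007990), a transcription factor of the epicardium named after its values were seen, stood at 17.0, 17.6 and 21.4 in DMSO and 11.2, 8.10 and 11.4 in RO and did not pass (log2 fold change -0.84, adjusted p = 0.0723). Of 5 names in the skeletal muscle list only 2 were measured, as ckma and 2 ACTA1 IDs. Whether these mark skeletal muscle in the apex was not tested. They summed to 3492 to 4160 in DMSO and 3575 to 4398 in RO, which overlapped. Their mean log2 was 9.06 to 9.50 in DMSO and 9.51 to 9.97 in RO. It was higher in every RO library, with RO replicate 3 almost level with DMSO replicate 2. The IDs behind this mean were divided, with log2 fold changes of -0.21 for ckma and 0.46 for ACTA1 (ENSDARG00000055618). The other ACTA1 ID (ENSDARG00000036371), named after its values were seen, had 0.93 and did not pass (adjusted p = 0.117). Cardiomyocyte markers summed to 29852 to 37379 in DMSO and 28449 to 31772 in RO, and macrophage markers to 239 to 405 and 300 to 474, and both lists overlapped on both measures. No member of these 4 lists passed. Their most abundant members were ALDH1A2 and TBX18 (adjusted p = 0.492 and 0.565), ckma and ACTA1 (ENSDARG00000055618; 0.633 and 0.322), actc1a and MYL7 (0.699 and 0.580), and MFAP4 and marco (0.854 and 0.915).

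**Figure D5:**
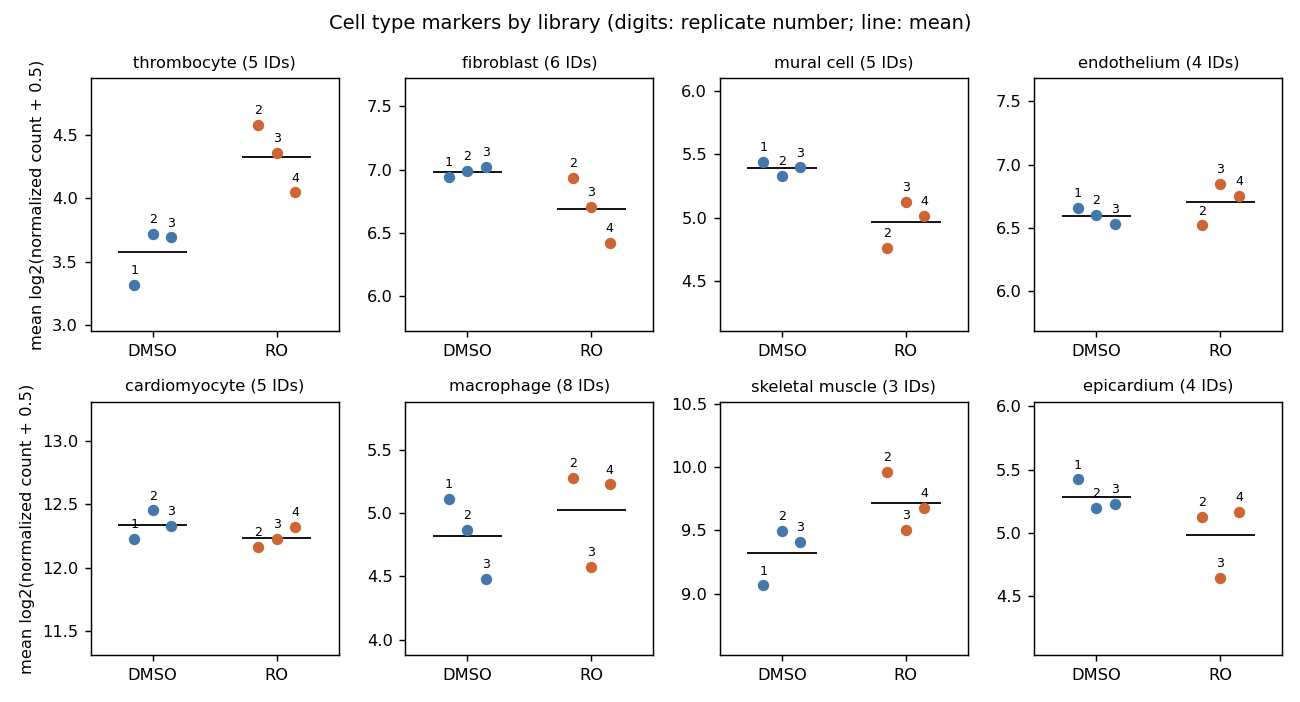
Mean log2(normalized count + 0.5) of the markers of 8 cell types in each library, with a line at each group mean, the replicate number above each point and a vertical axis of equal span in each panel that does not start at 0. Every RO library is higher for thrombocyte and skeletal muscle markers (in the latter, RO replicate 3 is almost level with DMSO replicate 2). The means of the mural, epicardial and fibroblast markers are lower in every RO library (in the last, RO replicate 2 is almost level with DMSO replicate 1). The groups overlap in the other 3 panels.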

How the data were processed

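The authors deposited 1 table of normalized counts, a scaled signal per gene and library. Per the submitters' processing notes, build Zv9 and the tools RSEM 1.2.3, Bowtie2 2.0.6, edgeR, cutadapt 1.6.1 and CASAVA 1.8 were used, with no roles stated. Neither strand use nor the annotation release is stated, so overlapping and antisense genes cannot be told apart. In every library 100% of the values were whole reads, within 0.01 read, divided by 1 factor. The recovered reads were 3306018 to 4463303 per library, and 1 read was worth 0.219 to 0.298.

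All 14211 genes of the table had a value above 1 in at least 3 libraries, so genes below that level are not analysed here. Symbols came from a table that names 11589 of these IDs. Values were taken as log2(value + 0.5), without a further filter, and RO minus DMSO was fitted over all genes by limma-trend (limma 3.58.1 in R 4.3.3), without covariates, with Benjamini-Hochberg adjustment. Fold changes are on that scale and understate the change of low genes. The code was tested on simulated data. Alternatives included edgeR 4.0.16 and DESeq2 1.42.0 on the recovered reads.

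The members and lists were chosen with earlier results of these data known. The rule named every member, the passing genes of each list or its 2 most abundant, and the 5 genes most correlated with TAGLN. Genes named after their values were seen are marked, apart from some cell type markers. These markers, such as DCN and MCAM, fall outside the rule and show how their lists divide. The list of genes that control myosin light chain phosphorylation is not reported here. Pairs of libraries within a group differed by more than sampling noise (chi-square per degree of freedom 5.01 to 11.7). Each library pools 3 hearts per the labels, batches are not stated, and p-values measure only the spread between these pools.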

Additional observations from a re-analysis of the deposited data

How the results depend on the processing

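Of the 8 gene IDs, 1 passed as reported. None passed with a pseudocount of 0.1, quantile normalization, limma without its mean-variance trend, edgeR or any 1 library left out (0 in each case). TAGLN (ENSDARG00000033466) kept its direction in every alternative run, with log2 fold changes of 0.47 to 0.62. Its adjusted p was 0.0529 with the pseudocount of 0.1, 0.0668 with quantile normalization and 0.216 without the trend. It was 0.0449 with a pseudocount of 2, 0.0457 with a minimum value of 5 in 3 libraries and 0.0469 with median-of-ratios scaling. With robust empirical Bayes in limma it was 0.0442, and with array weights 0.0343. Over all genes 147 passed, 1 without the trend, 227 in DESeq2 and 22 to 105 with 1 library left out. Same-numbered libraries exist for replicates 2 and 3 only, and their deviations from the group means had correlations of 0.116 and 0.0913, so the numbers were not taken to pair samples. With the replicate number as a block 405 genes passed, and 2 of the 8 IDs, TAGLN (adjusted p = 0.0305) and smtnb (log2 fold change -0.59, adjusted p = 0.0372). In that fit DMSO replicate 1 and RO replicate 4 each stand alone in a block. Its difference between RO and DMSO therefore rests on replicates 2 and 3 only.

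Signs turned for values near 0 or of few reads. With 1 library left out MYLK ranged from -0.62 to 0.036. The ratio of cald1b to TAGLN ranged from -0.30 to 0.26 with 1 library left out, and that of elnb from -0.49 to 0.50. With array weights MFAP4 was -0.0054, marco -0.019 and cald1a 0.017, and cald1a was 0.011 with the block; with 1 library left out MFAP4 ranged from -0.13 to 0.40, marco from -0.081 to 0.20 and cald1a from -0.22 to 0.038. Quantile normalization ended the calls of flna (adjusted p = 0.0534), CSRP1 (0.0651) and flt1 (0.0534). Without the trend none of the genes named here passed, and DESeq2 also called COL1A2 (adjusted p = 0.0158), array weights wt1b (0.0408) and the block TBX20 (0.0480). The cause of these changes was not tested. For elnb, with 11 to 67 reads per library, the counting error at the mean reads of a group was 19.9% in DMSO and 15.3% in RO.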
